A study of Mus musculus with 24 samples.

Results

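Glucose enters brown adipocytes through facilitative transporters and is split by the enzymes of glycolysis. The genes described here are 10 of that route: the transporters Slc2a1 and Slc2a4, the hexokinases Hk1 and Hk2, the phosphofructokinases Pfkl and Pfkp, the lower glycolytic enzymes Gapdh and Eno1, and the lactate dehydrogenase subunits Ldha and Ldhb. They were chosen by name, with earlier results of these data known, and all 10 were found among the 13162 genes listed in any of the 5 deposited tables and in each of the 5 tables. RNA was sequenced from interscapular brown fat, the heat-producing pad between the shoulder blades, of male C57BL/6 mice aged 10 to 12 weeks. Control mice carried floxed Hdac3 alleles. Knockout (KO) mice carried the same floxed alleles and Cre under the Ucp1 promoter, which is active in brown adipocytes, so the other cells of the tissue are outside its reach. Each genotype was kept at 22 °C, or spent 24 h at 15 °C followed by a recovery of 24 h or of 7 d, again at 22 °C. This gave 6 groups of 4 libraries, 24 in all, which the protocols call biological replicates. Tissue of all groups was collected at zeitgeber time 10, counted in hours from lights on, so only that time of day was sampled.

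Uptake sets how much glucose an adipocyte can burn or store. GLUT4, the product of Slc2a4, moves to the cell surface with insulin and cold, while GLUT1, the product of Slc2a1, also works at the surface without insulin. Hexokinase traps glucose as glucose 6-phosphate, phosphofructokinase commits it to glycolysis, and lactate dehydrogenase interconverts pyruvate and lactate. Its LDHA and LDHB subunits mix in 1 tetramer, and tetramers rich in LDHB are typical of oxidative tissues such as heart. In brown fat, glucose carbon also feeds fatty acid synthesis during and after cold.

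The deposited tables give group means in RPKM, a read count set against gene length and library size, fold changes and adjusted p-values. They hold no value per library. Library totals recovered from those means ran from 4.64e+06 to 1.25e+07 reads, and the mean was 8.39e+06 ± 1.90e+06 (SD, n = 24). Where exactly 1 set of whole reads over the 4 libraries gives a deposited mean, the library values could be rebuilt. This held for 21 of the 60 group means of the 10 genes, which are all 6 groups of Slc2a1, Hk1 and Pfkp and the KO group at 22 °C of Pfkl, Gapdh and Ldhb. Rebuilt values are less certain where more sets could fit by chance. The number of sets expected by chance was 0.74 for Pfkp in Control at 24 h. In KO at 22 °C it was 0.75 for Gapdh and 0.25 for Pfkl, and for Hk1 it was at most 0.0058. Hdac3 itself was 2.59-fold to 3.82-fold lower in KO over the 3 times in the deposited tables. All 13 brown adipocyte markers were listed, and in the deposited table of the genotypes at 22 °C 5 were lower in KO (Ucp1, Cidea, Ppargc1a, Ebf2 and Cox8b) and 5 higher (Adipoq, Plin1, Fabp4, Cebpa and Elovl3), where 16.3% of listed genes were higher and 2282 of 12710 lower. Ucp1, the heat-producing uncoupling protein, had deposited means of 1607 RPKM in Control and 32.8 RPKM in KO without cold (41.9-fold lower, adjusted p = 4.2e-33), so it was low in the group where most genes of the route were lowest. Its deposited means were 4966 and 3884 RPKM at 24 h (adjusted p = 0.779) and 2948 and 2163 RPKM at 7 d (adjusted p = 0.578). The sum of the 13, from 14279 RPKM in Control at 22 °C to 27712 RPKM in KO at 24 h, came mostly from Fabp4, with deposited means of 8202 and 19069.6 RPKM in those groups. White adipocyte markers summed to 75.5 RPKM in Control and 235 RPKM in KO at 22 °C. Of the 5 listed, Lep and Retn were higher in KO in the deposited table, beside 16.3% of listed genes, and 0 were lower. These sums came mostly from Lep (25.5 and 69.1 RPKM) and Retn (27.6 and 145 RPKM). Nnat (20.8 and 19.3 RPKM), Hoxc8 (0.884 and 0.548) and Agt (0.630 and 0.875) did not pass. The part of the brown and white marker shifts in the genotype differences at 22 °C was not tested. Endothelial markers stayed between 188 and 227 RPKM in the deposited means. The tissue is a mixture, and in such bulk samples fewer cells of a type and less RNA per cell cannot be told apart.

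By the deposited means, the KO group at 22 °C was the low point of the route and the Control group at 24 h its high point. These means and their sums leave out the authors' normalization factors. Their log2 ratio of KO to Control at 22 °C was offset from the deposited fold change by a median of -0.238. For Slc2a4, Hk2 and Ldha the deposited log2 fold changes there were 0.06, -0.09 and -0.08, and none passed an adjusted p under 0.05. In the authors' deposited means, 8 of the 10 genes were lowest in KO at 22 °C, the exceptions being Pfkp (lowest in Control at 22 °C) and Slc2a1 (lowest in KO at 7 d). Control at 24 h held the highest deposited mean of 9 genes, and Slc2a4 was highest in Control at 7 d. Summed over the 10 genes, the deposited means came to 1379.6 RPKM in Control at 22 °C, 3156 at 24 h and 2449 at 7 d. The same deposited sums in KO were 768, 2437 and 2065 RPKM. On this scale per length, Ldha was the highest, Eno1 the next and Slc2a1 the lowest of the 10 in each of the 6 groups. The ratio of the highest to the lowest group mean was 14.1 for Ldhb, 10.1 for Pfkl, 5.39 for Gapdh and 5.04 for Eno1, and it was 1.59 for Slc2a4, as computed from the deposited means.

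**Figure D1:**
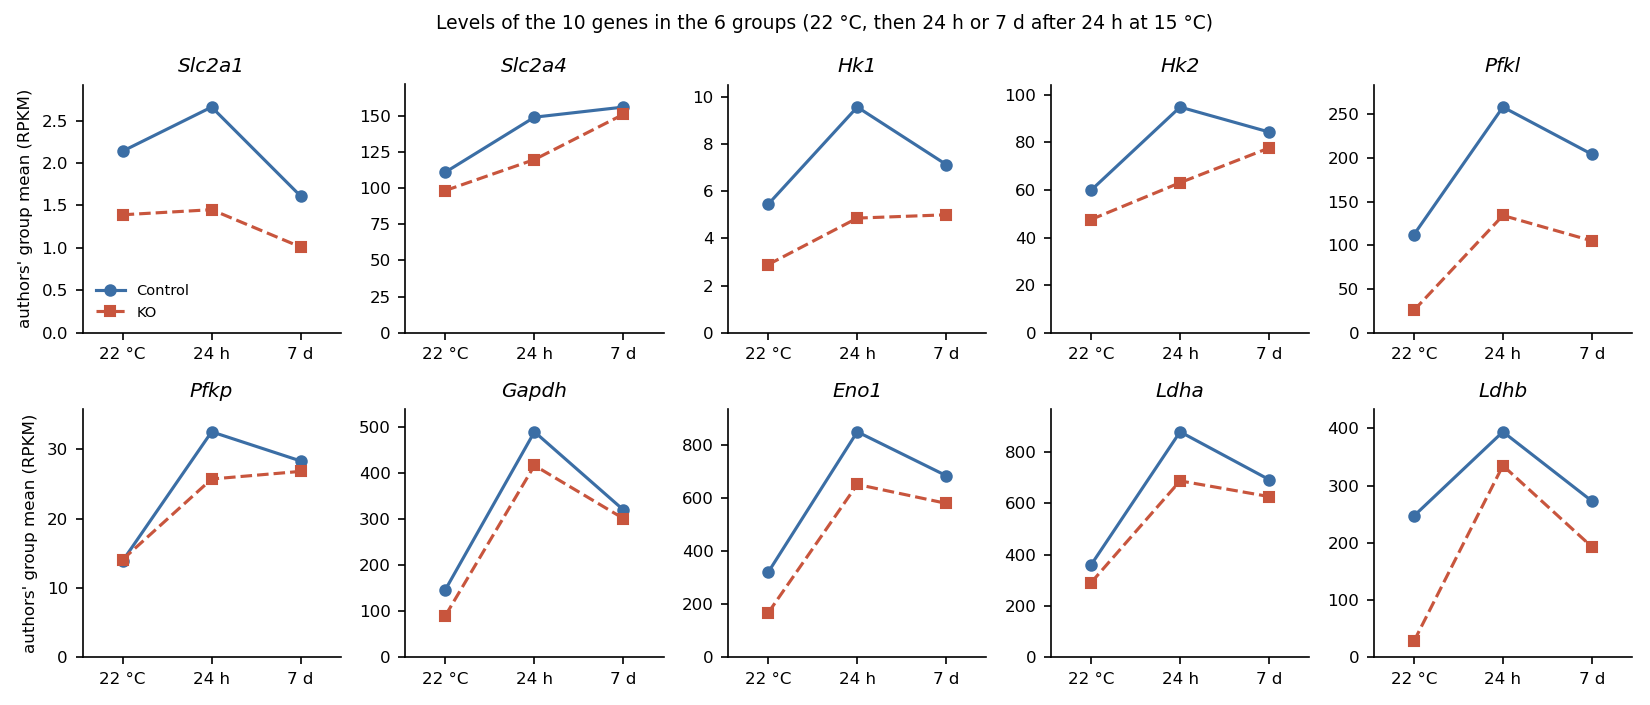
Authors' group means in RPKM (vertical axis, from 0, own scale per gene) of the 10 genes at 22 °C, 24 h and 7 d (horizontal axis), with Control as blue circles and KO as red squares; lines only join the means, which were deposited without errors. Ldhb starts at 28.0 RPKM in KO against 247 in Control at 22 °C and reaches 335 against 394 at 24 h.

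In Control, 9 of the 10 genes rose between 22 °C and 24 h of recovery at the authors' adjusted p under 0.05 and 0 fell, Slc2a1 being the gene that did not pass. In this deposited comparison 13.1% of all listed genes were higher and 21.8% changed in either direction. The median log2 fold change of the 10 genes was 1.06, against 0.013 over all listed genes. In KO, 7 of the 10 rose and 0 fell, where 22.1% of all listed genes were higher and 41.9% changed in either direction. Slc2a1, Slc2a4 and Hk2 did not pass in KO. The median of the 10 was 1.02 in KO, against -0.024 over all listed genes.

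Between the genotypes, every gene of the 10 that passed was lower in KO. At 22 °C, 5 of the 10 were lower in KO (Hk1, Pfkl, Gapdh, Eno1 and Ldhb) and 0 higher, where 34.3% of all listed genes changed in the deposited table, 2282 of 12710 being lower and 16.3% higher. At 24 h of recovery 3 were lower (Slc2a1, Hk1 and Pfkl), beside 7.96% of listed genes lower and 18.5% changed. At 7 d, Pfkl and Ldhb were lower (2 of 10), beside 6.14% lower and 15.3% changed. The deposited fold changes carry the authors' normalization factors and the RPKM means do not. At 22 °C the log2 ratio of the KO to the Control mean was therefore lower than the deposited log2 fold change by a median of 0.238 over all genes, so means of KO at 22 °C read lower than the fold changes beside them. This offset was -0.140 at 24 h and -0.066 at 7 d. The comparisons of recovery in KO and of the genotypes at 22 °C use the same 4 KO libraries at 22 °C, so they are not independent of each other.

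**Figure D2:**
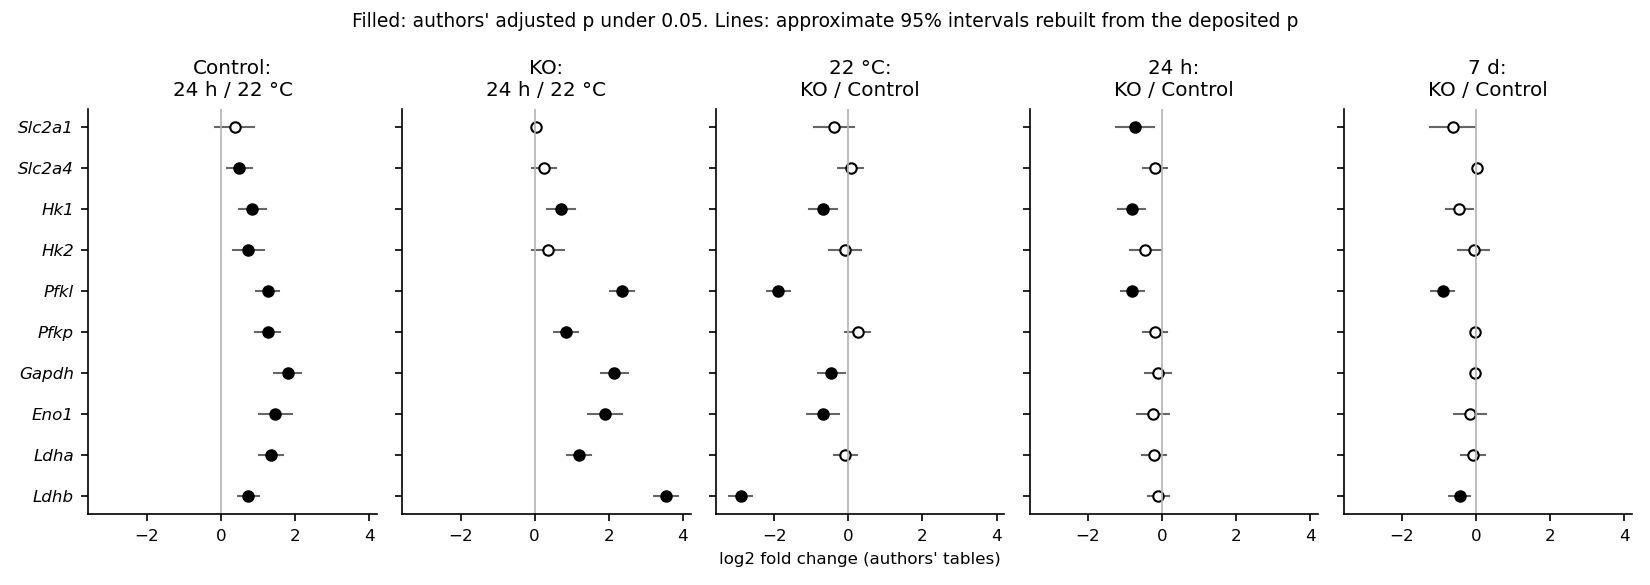
Log2 fold changes of the authors' deposited tables (horizontal axis) for the 10 genes (rows) in the 5 comparisons (panels), with approximate 95% intervals rebuilt from the deposited p-values; filled points have an adjusted p under 0.05, and no line is drawn where p was above 0.9. Recovery values lie right of 0 in both genotypes, and Pfkl and Ldhb lie far left at 22 °C (log2 fold changes of -1.90 and -2.91).

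Slc2a4 encodes GLUT4 and was the higher of the pair of transporters. Over the 7 glucose transporters listed, the deposited means summed to 127 RPKM in Control at 22 °C, of which Slc2a4 made up 111 RPKM and Slc2a8 9.06 RPKM. Its deposited means were 111, 149 and 156 RPKM in Control at 22 °C, 24 h and 7 d, and 98.3, 119.7 and 151 RPKM in KO. Slc2a4 rose 1.42-fold between 22 °C and 24 h in Control in the authors' deposited table (log2 0.50, approximate 95% interval 0.17 to 0.84, adjusted p = 0.021). The KO value was 1.19-fold (log2 0.25, interval -0.08 to 0.59, adjusted p = 0.251) in the deposited table. The difference of these effects, KO minus Control, was -0.25 log2 (interval -0.73 to 0.22, adjusted p = 0.549), so a smaller rise in KO was not shown. No genotype comparison of Slc2a4 passed, and its direction at 22 °C depends on the scaling, with a deposited log2 fold change of 0.06 and a log2 ratio of means of -0.18.

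Slc2a1 encodes GLUT1 and was read rarely, with 23.1 to 59.5 expected reads per library over the groups, so its values are imprecise. The rebuilt libraries of Control at 22 °C lay at 1.85, 2.11, 2.17 and 2.44 RPKM, those at 24 h at 1.87, 2.38, 2.40 and 4.0, and those at 7 d at 1.34, 1.36, 1.59 and 2.14. In KO they lay at 1.19, 1.23, 1.55 and 1.58 RPKM at 22 °C, at 0.972, 1.33, 1.45 and 2.06 at 24 h, and at 0.578, 1.06, 1.16 and 1.26 at 7 d. The genotypes did not overlap at 22 °C or at 7 d in these unscaled values, and they overlapped at 24 h, where 1 Control library stood above the rest. At 22 °C the log2 ratio of such unscaled means, KO over Control, is offset from the deposited fold change by a median of -0.238 over all genes. With the authors' normalization factors Slc2a1 was past the threshold only at 24 h, at 1.65-fold lower in KO (log2 -0.72, interval -1.24 to -0.21, adjusted p = 0.038) in the authors' deposited table. The deposited values at 22 °C (log2 -0.38, adjusted p = 0.321) and at 7 d (log2 -0.63, adjusted p = 0.167) did not pass. The KO effect at 7 d minus that at 24 h was 0.09 log2 (interval -0.70 to 0.88, adjusted p = 1.000), so the times were not shown to differ. Leaving out the highest Control library lowers the Control mean by construction. The log2 ratio of library means at 24 h, KO over Control, then went from -0.87 to -0.61. The share of Slc2a4 in the summed means of both transporters stayed between 98.1% and 99.3% over the 6 groups.

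Hk2, the insulin-responsive hexokinase of muscle and fat, was the main hexokinase of the pair. Its deposited means were 59.9, 94.9 and 84.4 RPKM in Control and 47.6, 63.1 and 77.7 RPKM in KO at 22 °C, 24 h and 7 d. Hk2 rose 1.67-fold at 24 h in Control in the authors' deposited table (log2 0.74, interval 0.32 to 1.16, adjusted p = 0.0057). In KO the deposited value was 1.29-fold (log2 0.37, interval -0.06 to 0.79, adjusted p = 0.173). The difference of effects for Hk2 was -0.37 log2 (interval -0.97 to 0.22, adjusted p = 0.457), and no genotype comparison of Hk2 passed.

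Hk1 is the broadly expressed hexokinase, and it was lower in KO both at 22 °C and at 24 h. The rebuilt Control libraries lay at 4.63, 5.06, 5.77 and 6.36 RPKM at 22 °C, at 6.46, 8.50, 8.83 and 14.5 at 24 h, and at 6.10, 6.49, 7.82 and 8.13 at 7 d. The KO libraries lay at 2.62, 2.76, 2.93 and 3.23 RPKM at 22 °C, at 4.41, 4.61, 4.99 and 5.42 at 24 h, and at 3.68, 4.80, 4.97 and 6.57 at 7 d. All 4 KO libraries were below all 4 Control libraries at 22 °C and again at 24 h, and at 7 d the genotypes overlapped. In the authors' deposited tables Hk1 was 1.61-fold lower in KO at 22 °C (log2 -0.69, interval -1.07 to -0.31, adjusted p = 0.0021). At 24 h it was 1.77-fold lower (log2 -0.82, interval -1.19 to -0.46, adjusted p = 2.1e-04) in the deposited table. At 7 d the deposited log2 fold change was -0.45 (interval -0.81 to -0.08, adjusted p = 0.096). Hk1 rose at 24 h in both genotypes in the deposited tables, 1.81-fold in Control (adjusted p = 1.1e-04) and 1.64-fold in KO (adjusted p = 9.8e-04), with no overlap of the libraries of either time. The difference of these effects was -0.14 log2 (interval -0.67 to 0.39, adjusted p = 0.797).

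A Control library at 24 h was the highest of its group for Slc2a1 (4.0 RPKM), Hk1 (14.5) and Pfkp (42.9). Macrophage markers were also highest there. Of the 11 macrophage markers listed, 10 could be rebuilt by library, and they summed to 190.3 RPKM in that library and to 124, 39.3 and 35.7 RPKM in the other Control libraries at 24 h. The 20 libraries of the other groups lay between 26.0 and 66.5 RPKM. By the authors' deposited adjusted p, 9 of the 11 markers rose at 24 h in Control (among them Emr1, Cd68 and Csf1r) and 0 fell, beside 13.1% of all listed genes higher. In KO 0 rose and Cd14 fell, beside 22.1% of listed genes higher and 19.8% lower. Summed over the 11 listed markers, the deposited means were 93.6, 258 and 124 RPKM in Control and 121, 145 and 94.7 RPKM in KO, and none was at 0 in any group. Without that library the log2 ratio of library means between Control at 24 h and 22 °C went from 0.31 to 0.05 for Slc2a1, from 0.81 to 0.54 for Hk1 and from 1.22 to 1.06 for Pfkp. Since it was the highest of its group for each of these genes, a fall was fixed in advance and only its size is shown. For Hk1 and Pfkp the remaining 3 libraries still lay above all libraries at 22 °C. The Control library at 24 h with a macrophage sum of 124 RPKM had 2.40 RPKM of Slc2a1, 8.50 of Hk1 and 28.7 of Pfkp. The one with 35.7 RPKM had 1.87, 8.83 and 33.9. The part of macrophages was not tested for any of the 10 genes, and library values of the other 7 could not be rebuilt at 24 h.

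**Figure D3:**
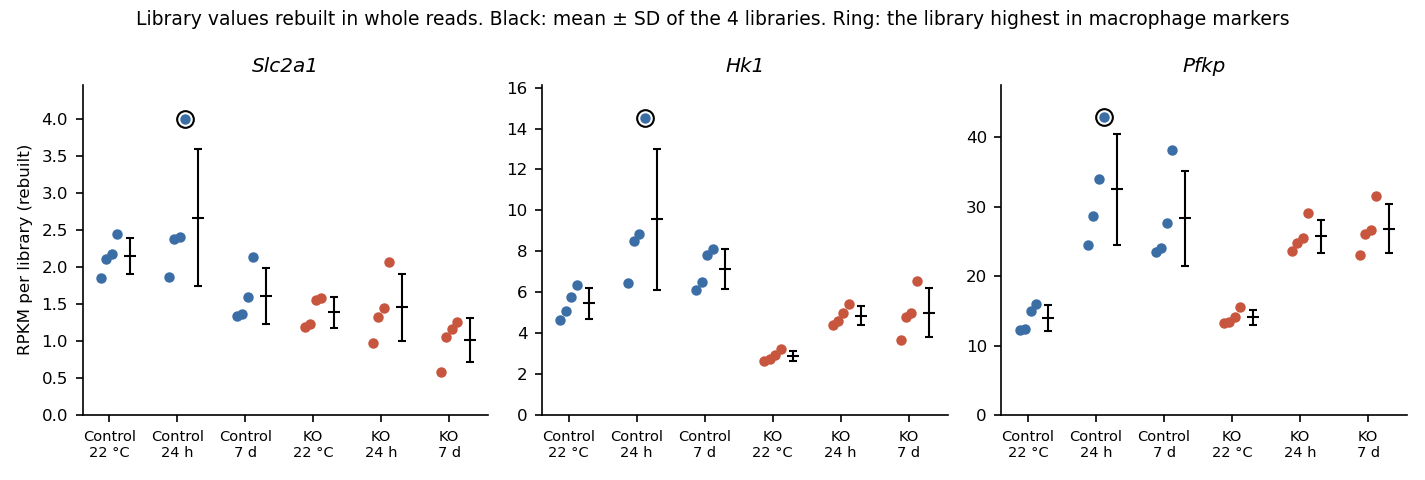
RPKM per library (vertical axis, from 0) of Slc2a1, Hk1 and Pfkp in the 6 groups (horizontal axis), as rebuilt in whole reads from the deposited means; points are libraries in order of value, black bars are the mean ± SD of 4 libraries, and the ring marks the Control library at 24 h with the most macrophage marker transcript. The ringed library is the highest of the Control group at 24 h for each of the 3 genes (4.0, 14.5 and 42.9 RPKM).

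Pfkl and Pfkp encode the liver-type and platelet-type subunits of phosphofructokinase, and Pfkl passed in each genotype comparison while Pfkp passed in none. Pfkl fell from a deposited mean of 112 RPKM in Control to 25.5 in KO at 22 °C, where the 4 rebuilt KO libraries lay at 22.1, 23.8, 26.0 and 29.9 RPKM. It was 3.72-fold lower in KO (log2 -1.90, interval -2.21 to -1.58, adjusted p = 2.1e-29) in the authors' deposited table. Pfkl stayed lower in KO at 24 h, with deposited means of 258 and 134 RPKM (1.75-fold, log2 -0.81, adjusted p = 7.6e-06), and at 7 d, with 204 and 105 RPKM (1.86-fold, log2 -0.90, adjusted p = 6.8e-07). It was the only gene of the 10 past the threshold between the genotypes at all 3 times. The KO effect on Pfkl at 7 d was smaller than at 22 °C by 1.00 log2 (error 0.23, interval 0.56 to 1.44, adjusted p = 2.2e-04) and differed from that at 24 h by -0.09 (interval -0.52 to 0.35, adjusted p = 1.000).

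Pfkl was higher at 24 h of recovery than at 22 °C in both genotypes, and the fold rise was larger in KO. In RPKM the deposited means went from 112 to 258 in Control and from 25.5 to 134 in KO, so KO rose from a lower start and stayed lower. No group was taken at the end of the cold, so the parts of cold and of recovery in this rise were not tested. The deposited rise at 24 h was 2.42-fold in Control (log2 1.27, interval 0.96 to 1.58, adjusted p = 4.0e-13). In KO it was 5.13-fold (log2 2.36, interval 2.04 to 2.68, adjusted p = 4.1e-44) in the deposited table. The difference of the effects was 1.09 log2 (error 0.23, interval 0.64 to 1.53, adjusted p = 4.3e-05), tested over 10923 genes of which 17.6% passed and 10.6% were higher in this direction. Of the 9 of the 10 genes that could be tested, Pfkl and Ldhb passed.

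Pfkp showed no genotype difference past the threshold at any time. The rebuilt Control libraries lay at 12.3, 12.4, 15.0 and 16.0 RPKM at 22 °C, at 24.4, 28.7, 33.9 and 42.9 at 24 h, and at 23.4, 24.0, 27.6 and 38.2 at 7 d. The KO libraries lay at 13.2, 13.4, 14.1 and 15.6 RPKM at 22 °C, at 23.6, 24.7, 25.5 and 29.1 at 24 h, and at 23.0, 26.1, 26.6 and 31.5 at 7 d. The genotypes overlapped at each time, while both recovery times lay wholly above 22 °C in each genotype. These library values are less certain than those of Slc2a1 and Hk1, since more sets of reads could fit the Pfkp means by chance. Pfkp rose 2.41-fold at 24 h in Control (log2 1.27, interval 0.93 to 1.60, adjusted p = 2.8e-11) and 1.79-fold in KO (log2 0.84, interval 0.51 to 1.17, adjusted p = 5.3e-06), as deposited. The difference of these effects was -0.43 log2 (interval -0.90 to 0.04, adjusted p = 0.227). At 22 °C the deposited log2 fold change of KO over Control was 0.25 (interval -0.09 to 0.58, adjusted p = 0.293).

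The balance of the phosphofructokinase isoforms, taken as shares of the summed deposited means of Pfkl, Pfkm and Pfkp, stood apart in KO at 22 °C. Pfkm, the muscle-type subunit, went from a deposited 36.8 RPKM in Control to 12.9 RPKM in KO without cold, a 2.41-fold lower level (adjusted p = 4.7e-05). Pfkl held 68.7% of the sum in Control at 22 °C and 48.5% in KO, and Pfkp held 8.58% and 26.8%. At 24 h the Pfkl share was 79.8% in Control and 73.1% in KO, and at 7 d it was 75.8% and 64.9%. The summed mean of the 3 isoforms at 22 °C was 162 RPKM for Control and 52.5 RPKM for KO, 323 and 184 at 24 h, and 269 and 162 at 7 d. Skeletal muscle also expresses Pfkm, and muscle markers differed widely between libraries. Of the 17 muscle markers 15 could be rebuilt. Their sum in the highest library of each group was 595, 917 and 2974 RPKM in Control and 537, 416 and 2485 RPKM in KO at 22 °C, 24 h and 7 d, against 16.1 to 81.2 RPKM in the remaining 18 libraries. No muscle marker passed the threshold in any of the 5 deposited tables. The highest Pfkp library of Control at 7 d (38.2 RPKM) and the highest Hk1 library of KO at 7 d (6.57 RPKM) were the libraries with the most muscle marker transcript, and the part of muscle in these values was not tested.

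Promoters of the 4 genes that form the contrasting isoform pairs, Pfkl with Pfkp and Ldha with Ldhb, are shown so that the pairs can be compared. They are the 250 bases before a RefSeq start in GRCm38.p6, which is a later build than the one the reads were mapped to. RefSeq windows were found for 9 of the 10 genes (13 windows), and Slc2a4 had no entry. Letters in capitals mark ACGTG or GCGTG, the cores bound by hypoxia-inducible factors, on either strand, where CACGT and CACGC are the same cores read from the other strand.
Pfkl, chr10:78009808-78010057, minus strand, GRCm38.p6: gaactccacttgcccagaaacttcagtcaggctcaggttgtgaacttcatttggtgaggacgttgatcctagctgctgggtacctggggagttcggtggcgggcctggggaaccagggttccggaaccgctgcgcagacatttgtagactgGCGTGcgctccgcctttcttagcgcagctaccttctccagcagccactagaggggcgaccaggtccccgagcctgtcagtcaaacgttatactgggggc
Pfkp, chr13:6648772-6649021, minus strand, GRCm38.p6: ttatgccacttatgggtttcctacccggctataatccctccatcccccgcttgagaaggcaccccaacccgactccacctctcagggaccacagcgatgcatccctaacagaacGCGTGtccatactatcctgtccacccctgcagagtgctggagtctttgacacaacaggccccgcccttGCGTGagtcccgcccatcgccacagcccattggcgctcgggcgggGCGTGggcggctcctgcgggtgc
Ldha, chr7:46845554-46845803, plus strand, GRCm38.p6: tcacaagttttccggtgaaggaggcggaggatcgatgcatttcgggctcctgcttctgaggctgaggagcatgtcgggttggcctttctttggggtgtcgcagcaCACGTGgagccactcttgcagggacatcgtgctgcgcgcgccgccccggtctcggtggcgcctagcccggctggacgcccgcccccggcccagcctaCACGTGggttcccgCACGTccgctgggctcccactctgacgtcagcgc
Ldhb, chr6:142507958-142508207, minus strand, GRCm38.p6: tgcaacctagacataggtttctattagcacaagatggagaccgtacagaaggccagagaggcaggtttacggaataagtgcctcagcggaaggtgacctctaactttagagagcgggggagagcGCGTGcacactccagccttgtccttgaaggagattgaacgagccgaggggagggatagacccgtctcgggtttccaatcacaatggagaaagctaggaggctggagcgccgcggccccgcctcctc
The Pfkl window held 1 GCGTG, with its first base 99 bases before the start, and the Pfkp window held 3, at 136, 68 and 23. In the Ldhb window 1 GCGTG began 126 bases before the start. The Ldha window held CACGTG, the E-box, at 145 and 48 bases before the start, each of which contains ACGTG on both strands, and 1 further ACGTG at 34. CACGTG was in 6.02% of 32851 windows of this length and, among the 13 windows of these genes, in the Ldha window shown alone. ACGTG was in 16.6% of all windows and GCGTG in 28.2%, and either was in 38.6% of all windows and in 12 of the 13. These 13 are not all separate, since Eno1 windows 2 and 3 overlap and hold the same GCGTG matches. AAGGTCA, the half-site read by estrogen-related receptors, was in 4.08% of all windows and here in 1 of the 3 Eno1 windows, 163 bases before its start. These are matches of letters only.

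Gapdh and Eno1 act in the lower, energy-yielding part of glycolysis, as glyceraldehyde 3-phosphate dehydrogenase and enolase, and they rose together after cold in both genotypes. Gapdh had deposited means of 147, 489 and 319.6 RPKM in Control and 90.7, 416 and 301 RPKM in KO. Its 4 rebuilt KO libraries at 22 °C spread from 65.7 and 79.6 to 92.6 and 125 RPKM. The deposited rise at 24 h was 3.48-fold in Control (log2 1.80, interval 1.44 to 2.16, adjusted p = 7.0e-19) and 4.45-fold in KO (log2 2.15, interval 1.78 to 2.52, adjusted p = 2.4e-28), and the difference of 0.35 log2 (interval -0.17 to 0.87) did not pass (adjusted p = 0.407). Gapdh was 1.37-fold lower in KO at 22 °C (log2 -0.46, interval -0.81 to -0.10, adjusted p = 0.038) in the authors' deposited table. This call was lost at an adjusted p under 0.01. Gapdh is often used as a constant reference in fat, and here its highest group mean was 5.39-fold its lowest.

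Eno1 had deposited means of 320.4, 848 and 683 RPKM in Control and 168, 650.2 and 579 RPKM in KO at 22 °C, 24 h and 7 d. It rose 2.77-fold at 24 h in Control (log2 1.47, interval 1.03 to 1.91, adjusted p = 6.2e-09) and 3.73-fold in KO (log2 1.90, interval 1.45 to 2.35, adjusted p = 1.8e-15), as deposited. The difference of these effects was 0.43 log2 (interval -0.20 to 1.05, adjusted p = 0.406). At 22 °C Eno1 was 1.61-fold lower in KO (log2 -0.68, interval -1.12 to -0.25, adjusted p = 0.0084) in the authors' deposited table, and at 24 h and 7 d it did not pass. The near-identical gene Eno1b was listed with the same number of reads as Eno1 in each of the 6 groups (read ratio 1.000 throughout). Values of Eno1 can therefore not be assigned to that gene alone.

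Ldha and Ldhb encode the A and B subunits of lactate dehydrogenase, and Ldhb had the widest range of group means among the 10 genes. At 22 °C the deposited mean of Ldhb was 247 RPKM for Control against 28.0 RPKM for KO, and the 4 rebuilt KO libraries lay close together at 24.3, 24.8, 29.9 and 33.0 RPKM. It was 7.51-fold lower in KO (log2 -2.91, interval -3.22 to -2.60, adjusted p = 6.2e-73) in the authors' deposited table. At 24 h of recovery the means were 394 and 335 RPKM, and the deposited log2 fold change of -0.10 (interval -0.39 to 0.18, adjusted p = 0.727) did not pass. At 7 d the means were 273 and 193 RPKM, a 1.35-fold lower level in KO (log2 -0.44, interval -0.72 to -0.15, adjusted p = 0.023) in the deposited table. At an adjusted p under 0.01 or a fold of at least 1.5 the call at 7 d was lost.

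Between 22 °C and 24 h Ldhb rose 11.7-fold in KO (log2 3.55, interval 3.23 to 3.86, adjusted p = 1.2e-103) and 1.67-fold in Control (log2 0.74, interval 0.45 to 1.02, adjusted p = 1.4e-05), as deposited. The difference of the effects was 2.81 log2, or 7.00-fold (error 0.22, interval 2.38 to 3.23, adjusted p = 1.0e-34). The KO effect at 7 d was smaller than at 22 °C by 2.47 log2 (error 0.21, interval 2.05 to 2.89, adjusted p = 2.3e-27), in a comparison where 14.8% of 10591 genes passed and 9.53% were higher in this direction. From 24 h to 7 d the KO effect on Ldhb changed by -0.33 log2 (interval -0.74 to 0.07, adjusted p = 0.910).

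Ldha, whose product favours the making of lactate, did not differ between the genotypes past the threshold at any time. Its deposited means were 360.0, 878 and 692 RPKM in Control and 291, 687 and 626 RPKM in KO. The deposited log2 fold changes of KO over Control were -0.08 at 22 °C (interval -0.40 to 0.24), -0.22 at 24 h (interval -0.54 to 0.10) and -0.08 at 7 d (interval -0.40 to 0.24). Ldha rose 2.54-fold at 24 h in Control (log2 1.35, interval 1.02 to 1.67, adjusted p = 2.6e-13) and 2.30-fold in KO (log2 1.20, interval 0.88 to 1.52, adjusted p = 7.4e-12), as deposited. The difference of these effects was -0.15 log2 (interval -0.60 to 0.31, adjusted p = 0.749).

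The subunit balance of lactate dehydrogenase moved with Ldhb. Of the summed deposited means of both subunits, Ldhb held 40.7% in Control and 8.77% in KO at 22 °C. The shares were 31.0% and 32.8% at 24 h, and 28.3% and 23.5% at 7 d. Thus the Ldhb share went down from 22 °C to recovery in Control and up in KO. The ratio of Ldha to Ldhb means was 1.46 in Control and 10.4 in KO at 22 °C, 2.23 and 2.05 at 24 h, and 2.54 and 3.25 at 7 d. These shares come from group means without library values and were not tested. Counted as reads, without division by gene length, the Ldhb share at 22 °C was 31.7% in Control and 6.10% in KO.

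**Figure D4:**
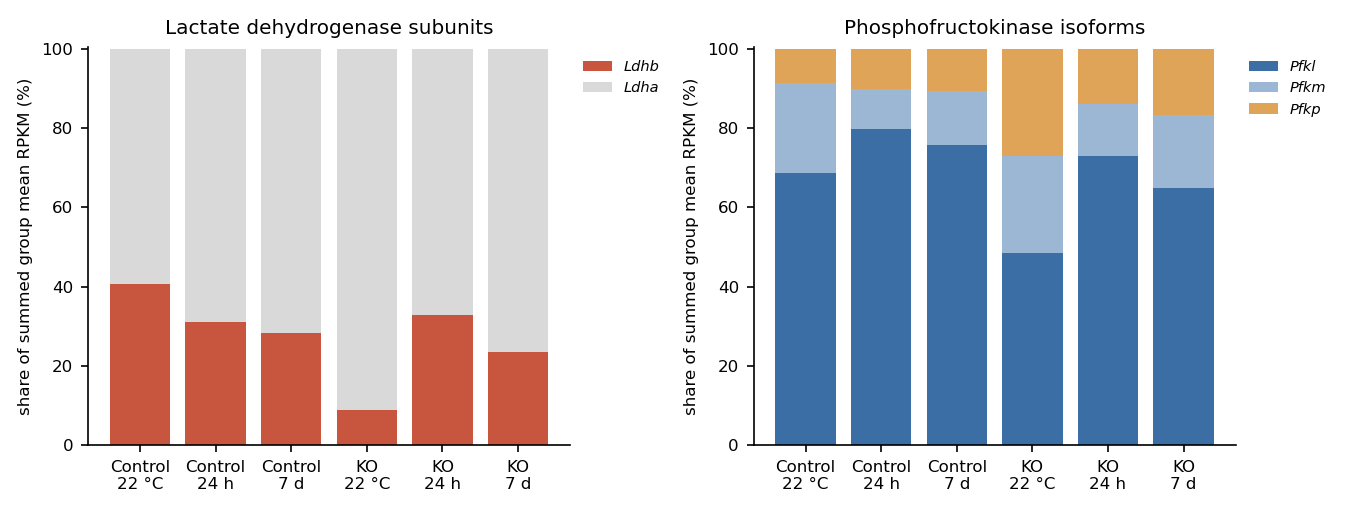
Share of each isoform in the summed group means in RPKM (vertical axis, percent) for lactate dehydrogenase (left) and phosphofructokinase (right) in the 6 groups (horizontal axis); the bars are shares of group means and carry no error. Ldhb is 8.77% of the pair in KO at 22 °C and between 23.5% and 40.7% in the other groups, and Pfkp is 26.8% of its trio in KO at 22 °C.

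Pfkl and Ldhb were thus the 2 of the 10 genes with a called difference of effects, both for recovery at 24 h and for 7 d against 22 °C. With errors from a t score, Pfkp (-0.43 log2, adjusted p = 0.023), Gapdh (0.35, adjusted p = 1.8e-07) and Eno1 (0.43, adjusted p = 0.019) also passed for recovery, so their calls depend on how the error is rebuilt. For the change from 22 °C to 7 d 7 of the 10 genes could be tested, since no error can be rebuilt where a deposited p is above 0.9. Between 24 h and 7 d, 0 of 7 tested genes passed by the normal score and 0 by a t score, with 0 at an unadjusted p under 0.05, and 0.201% of 10425 genes passed overall. For the genes that did not pass, the intervals were wide, such as -0.97 to 0.22 for Hk2 at 24 h or -0.10 to 1.12 for Eno1 between 22 °C and 7 d.

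**Figure D5:**
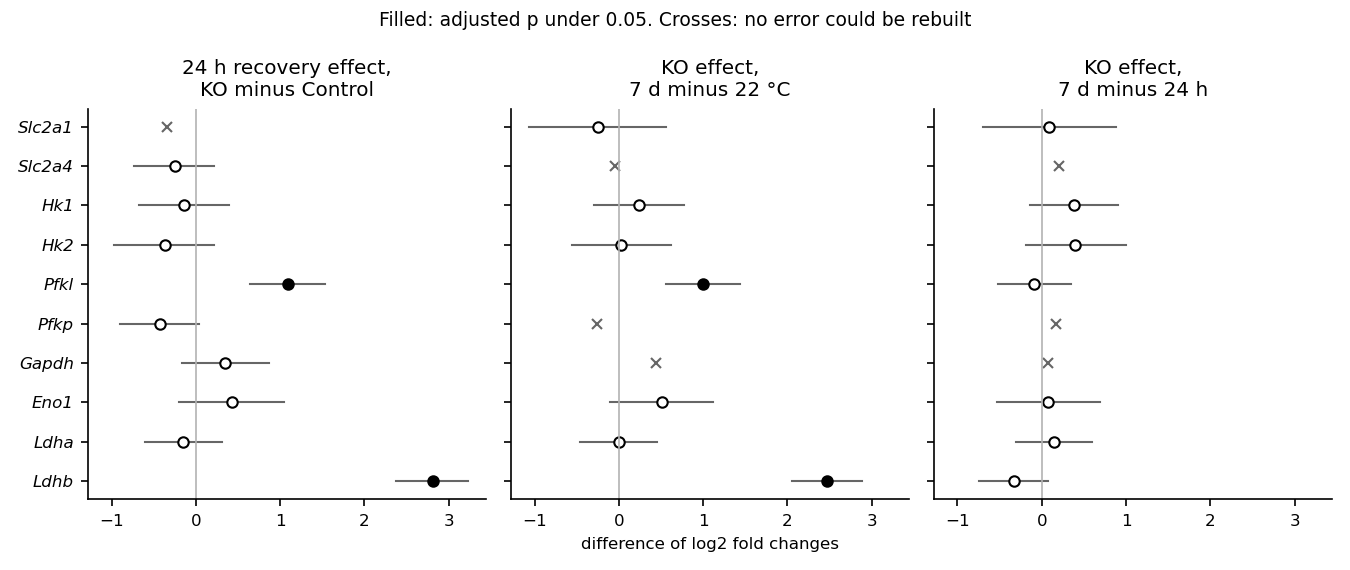
Differences of log2 fold changes (horizontal axis) for the 10 genes (rows): the recovery effect at 24 h in KO minus that in Control (left), and the KO effect at 7 d minus that at 22 °C (middle) or at 24 h (right), with approximate 95% intervals; filled points have an adjusted p under 0.05, and crosses are values with no rebuilt error. Pfkl (1.09 and 1.00) and Ldhb (2.81 and 2.47) are filled in the left and middle panels, and no point is filled on the right.

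After 7 d back at 22 °C the deposited means of the enzymes were above those without cold. No deposited table compares 7 d with 22 °C within a genotype, so log2 ratios of the deposited means were taken, less the median ratio over all genes (-0.114 in Control and 0.051 in KO). In Control 7 of the 10 genes were at least 1.5-fold higher at 7 d by this measure, which held for 7.47% of all genes, and the median of the 10 was 0.80. Gapdh (2.34-fold), Eno1 (2.31-fold) and Pfkp (2.20-fold) were the highest, from the deposited means, and Ldhb was 1.19-fold higher. In KO 8 were at least 1.5-fold higher, against 17.3% of all genes, with a median of 0.97. Ldhb (6.64-fold), Pfkl (3.97-fold), Eno1 (3.32-fold) and Gapdh (3.21-fold) led there, from the deposited means. Slc2a1 was on the other side in both genotypes, at 1.23-fold lower in Control and 1.42-fold lower in KO.

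For 3 genes the rebuilt libraries allowed an exact test of 7 d against 22 °C, 6 tests in all. With 4 libraries against 4 the smallest two-sided p is 0.0286. Pfkp reached it in Control and in KO (exact permutation p = 0.0286 in each), at 2.03-fold and 1.90-fold by the library means. For Pfkp at 7 d, 0.19 sets in Control and 0.39 in KO were expected to fit by chance, so its library values are less certain. Hk1 reached it in KO (1.73-fold, exact permutation p = 0.0286) and not in Control (1.31-fold, exact permutation p = 0.0571), where 1 library at 7 d lay within the range at 22 °C. Centred on the median gene, the Control value of Hk1 also reached 0.0286 by the exact permutation test. Slc2a1 was lower in both genotypes without passing (0.750 and 0.731 of the level at 22 °C, exact permutation p = 0.0857 in each). Adjusted over the 6 tests, the p-values were 0.0571 for the first 3 and 0.0857 for the others, so none passed.

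The profile over the 6 group means set the genes apart from each other. Likeness was measured as the distance between log2(mean + 1) values, centred per gene, over the 6 groups, among 8849 well-read genes. Pfkp and Ldha lay near each other (distance 0.355), as did Gapdh and Eno1 (0.403) and Slc2a4 and Hk2 (0.288). For Pfkp and Ldha 1 and 4 genes were nearer than the other of the pair, and for Gapdh and Eno1 2 and 4. For Slc2a4 and Hk2 65 and 23 genes were nearer, so their likeness was less particular despite the smaller distance. Pfkl and Ldhb were each other's nearest of the 10 at a larger distance of 0.999, with 40 other genes nearer to Pfkl and 11 nearer to Ldhb. The gene nearest to Pfkl in the whole pool was Pkm, which encodes pyruvate kinase, the last enzyme of glycolysis (distance 0.419). Nearest to Ldhb were Perm1, a regulator of oxidative genes in muscle (0.495), and Letmd1, which encodes a mitochondrial protein of brown fat (0.50). Deposited means of Perm1 were 11.2, 12.6 and 8.53 RPKM in Control and 0.259, 10.6 and 7.23 in KO. Nearest to Gapdh was Mpc2, a subunit of the mitochondrial pyruvate carrier (0.352), and nearest to Eno1 after Eno1b was Pdhb, a subunit of pyruvate dehydrogenase (0.276). For Ldha they were Hist1h2bc (0.165) and Sfxn5 (0.311), and for Slc2a1 Rps6ka4 (0.124) and Tgfbi (0.149). Slc2a4 lay near Nr1h3, the liver X receptor alpha gene (0.139), Hk1 near Tarbp2 (0.182) and Hk2 near Snx15 (0.117).

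A list of 40 other genes of uptake, glycolysis and lactate handling had 26 to 28 members in each deposited table. In Control 10 of the 27 listed rose at 24 h and 2 fell, by the authors' adjusted p, where 13.1% of all listed genes rose and 8.67% fell. In KO 11 of 26 rose and 5 fell, where 22.1% rose and 19.8% fell. Between the genotypes at 22 °C 13 of 27 were lower in KO and 5 higher, beside 2282 of 12710 listed genes lower and 16.3% higher. At 24 h 5 of 28 were lower and 6 higher, beside 7.96% and 10.5% of listed genes. At 7 d 5 of 27 were lower and 5 higher, beside 6.14% and 9.18%. Of the remaining core enzymes of glycolysis, 6 of 9 listed rose and 0 fell at 24 h in Control, and 6 of 8 rose and 0 fell in KO. At 22 °C 6 of 9 were lower in KO and 0 higher, and Pkm was 3.64-fold lower (adjusted p = 1.3e-20) in the deposited table. The difference of recovery effects was higher in KO for Gpi1, Tpi1, Pgk1, Pgam1, Pkm and Slc16a1 among 24 tested, and lower for Slc2a3. Over all genes tested, 10.6% were higher and 6.96% lower. The KO effect at 7 d minus that at 22 °C was higher for Gpi1, Aldoc, Pgk1, Pgam1, Pkm and Slc16a1. Of the 24 tested here 1 was lower, beside 9.53% of all genes tested higher and 5.29% lower.

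The Pfkfb genes encode enzymes that make and break down fructose 2,6-bisphosphate, the activator of phosphofructokinase, and 4 were listed. Pfkfb3 and Pfkfb1 were higher in KO at all 3 times in the deposited tables. The deposited excess of Pfkfb3 was 2.26-fold at 22 °C (adjusted p = 2.9e-05), 2.17-fold at 24 h (adjusted p = 2.1e-04) and 2.80-fold at 7 d (adjusted p = 4.1e-07). Pfkfb1 was 2.42-fold, 1.83-fold and 1.60-fold higher, as deposited. Pfkfb2 was lower in KO at 22 °C (log2 -0.42, adjusted p = 0.011) and at 7 d (log2 -0.48, adjusted p = 0.0059) in the deposited tables, and Pfkfb4 passed in none. Slc16a1 encodes the lactate and pyruvate carrier MCT1, and at 22 °C it had deposited means of 108 RPKM in Control against 15.3 RPKM in KO (5.97-fold, adjusted p = 1.9e-43). At 24 h its deposited log2 fold change was -0.42 (adjusted p = 0.072). Slc16a7, the carrier MCT2, was lower in KO at each time (3.67-fold, 3.16-fold and 4.03-fold in the deposited tables). Slc2a5, the fructose transporter GLUT5, was likewise lower in KO at each time (5.21-fold, 5.31-fold and 8.21-fold, as deposited), with deposited means at 22 °C of 1.91 RPKM for Control and 0.304 RPKM for KO.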

How the data were processed

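Poly(A)-independent RNA sequencing (ribosomal RNA removed with Ribo-Zero, TruSeq libraries, per the labels' protocols) was done on 24 libraries in 6 groups, each placed by its own label. Reads went through STAR, featureCounts and edgeR on mouse build mm9, per the submitters' processing notes; versions, strand settings and the handling of shared reads are not given in the sources used here. These steps gave 5 tables of group comparisons, which hold, per the file headers, log2 fold changes of the authors (second group over first), average log2 CPM, a p-value and adjusted p-value deposited from edgeR, gene length and group means. The headers name no unit for the means. They were read as RPKM of the authors because CPM rebuilt from the deposited means kept a nearly constant gap to the deposited CPM (median -0.51 log2, quartiles -0.54 and -0.50).

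A gene was listed when its higher mean was about 0.5 RPKM or more, and the authors adjusted p over 13414 genes. The 10 genes and all gene lists were chosen with earlier results of these data known. All 10 are named; other pathway genes are named as up to 4 per list by smallest p, or where 5 or fewer passed. The values of 1 pathway gene that this rule would name are not reported here. Gpi1, Tpi1, Pgk1, Pgam1, Pkm and Slc16a1 with a higher recovery effect, and Aldoc, Slc2a5, Slc16a7, Pfkfb1, Perm1 and Letmd1, are named with their values seen. The count test planned for library counts was replaced by the authors' edgeR adjusted p at 0.05, since the tables hold comparisons. Errors were rebuilt as the log2 fold change over the normal score of the deposited p (p up to 0.9), and differences between comparisons without shared groups were tested with them and Benjamini-Hochberg adjustment over all genes; these errors are approximate. Library totals were recovered from the steps of low means, and whole reads per library were kept where exactly 1 set gave the deposited mean. In 900 genes with few reads tried, 900 had 1 solution, and 0 had one with totals off by 1. Pfkp, Pfkl and Gapdh had more reads than these 900 genes, so this check does not cover their rebuilt values. Rebuilt libraries carry no replicate number. Both procedures were also run on simulated data, and the outcomes are not given here. The mean read numbers simulated for the rebuilding were below those of Pfkl and Gapdh in KO at 22 °C and of Pfkp during recovery. Alternatives covered thresholds, filters, scaling, error models and library omission. Python 3.11.15, pandas 2.3.3, numpy 2.4.6 and scipy 1.17.1 were used.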

Additional observations from a re-analysis of the deposited data

Results flagged for a closer look

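Effects on Pfkl and Ldhb differed between genotypes or times. The rise from 22 °C to 24 h of recovery was larger in KO than in Control by 1.09 log2 for Pfkl and by 2.81 log2 for Ldhb. The KO effect at 7 d differed from that at 22 °C by 1.00 log2 for Pfkl and by 2.47 log2 for Ldhb. Both differences involve the same 4 KO libraries at 22 °C, so they are not independent of each other. Among the 21 groups of 4 rebuilt libraries of the 10 genes, 0 held a library whose gap to the next passed Dixon's 95% critical value.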

How the results depend on the processing

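The counts of genes past the threshold kept within 1.5 times in 29 of 33 checks, and 9 of 10 checks of medians and isoform shares moved by less than their spread; no called direction reversed. Between the genotypes at 7 d the count was 1 in place of 2 at an adjusted p under 0.01, at a fold of at least 1.5 and under the authors' own status (adjusted p under 0.01 and fold of at least 1.5, an alternative chosen after seeing the data), Ldhb being lost each time. With errors from a t score with 18 degrees of freedom, 5 genes passed for the recovery effect in KO minus Control, adding Pfkp, Gapdh and Eno1. By construction a t score makes the error of a very small p smaller. The Ldhb share in KO minus Control at 22 °C was -25.6 percentage points when means were multiplied by gene length, against -31.9. An adjusted p under 0.01 also removed Slc2a4 (Control recovery), Gapdh (22 °C) and Slc2a1 (24 h). Log2 ratios of means without centring moved 9 of 50 values, all between the genotypes at 22 °C, and 0 of the called ones reversed. Slc2a1 rests on few reads, which limits what its values can show. No paired analysis was possible because the tables hold no values tied to replicate numbers, and for the same reason the authors' fits could not be repeated without each replicate.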
